A study of Rattus norvegicus with 8 samples.

Results

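The genes described here are the molecular chaperones and co-chaperones of the rat heart outside the strongly heat-inducible set, 72 genes of the 14217 genes named on the array. They were chosen by gene symbol, as the HSP, DNAJ, BAG and CCT genes of the platform annotation whose probe set carries a single symbol. Hspa1a, Hspa1b, Hspa8, Hspb1, Hsph1, Dnajb1 and Bag3 were left out by name. The pattern found 115 probe sets of 77 genes, of which 108 probe sets of 72 genes remained. A further 6 probe sets of these families carry several symbols and were not used, and Hsp90aa1 is therefore not analysed here. Where a gene had several probe sets, the brightest over the 8 arrays stood for it.

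RNA was measured in 8 isolated hearts of male Wistar rats, 1 array a heart. All were perfused for 2 h in a Langendorff apparatus without recirculation, which feeds the coronary vessels through the aorta, 4 of them without drug (controls) and 4 with doxorubicin at 2 µM. Doxorubicin is an anthracycline, a cancer drug that intercalates in DNA, poisons topoisomerase II and can damage the heart. All 8 hearts had been excised and perfused, the labels describe no genetic change in either group, and age is not given in the sources used here. Hearts of a group are biological replicates per the labels.

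Chaperones bind unfolded stretches of other proteins and help them fold, assemble, cross membranes or be degraded. HSP70 proteins do so in cycles of ATP hydrolysis, in which J-domain proteins (the DNAJ genes) deliver the client and trigger hydrolysis, and nucleotide exchange factors such as BAG and HSP110 proteins release it. HSP90 matures kinases and receptors, small heat shock proteins hold unfolding proteins in solution, and the ring-shaped chaperonins, CCT in the cytosol and HSP60 with HSP10 in mitochondria, fold proteins inside a chamber. In heart muscle these systems help maintain the sarcomere.

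Few of these genes differed between the groups. Of the 72, 2 fell in doxorubicin hearts at a limma adjusted p under 0.05, the cytosolic J-domain genes Dnaja1 (1.32-fold lower) and Dnajb4 (1.26-fold lower), and none rose. This is 2.78% of the members lower, against 2.17% of all genes, and no member higher, against 0.802% of all genes, so the share called lower is near the background. At an unadjusted p under 0.05, 7 members were lower (9.72%) and 13 higher (18.1%), where 7.07% of all genes were lower and 9.67% higher. The median difference of the members, doxorubicin minus control, was 0.05 log2, beside 0.0063 over all genes. A positive difference was found for 48 members (66.7%) and for 51.9% of all genes. In bulk tissue, fewer cells of a type and less RNA per cell cannot be told apart.

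**Figure D1:**
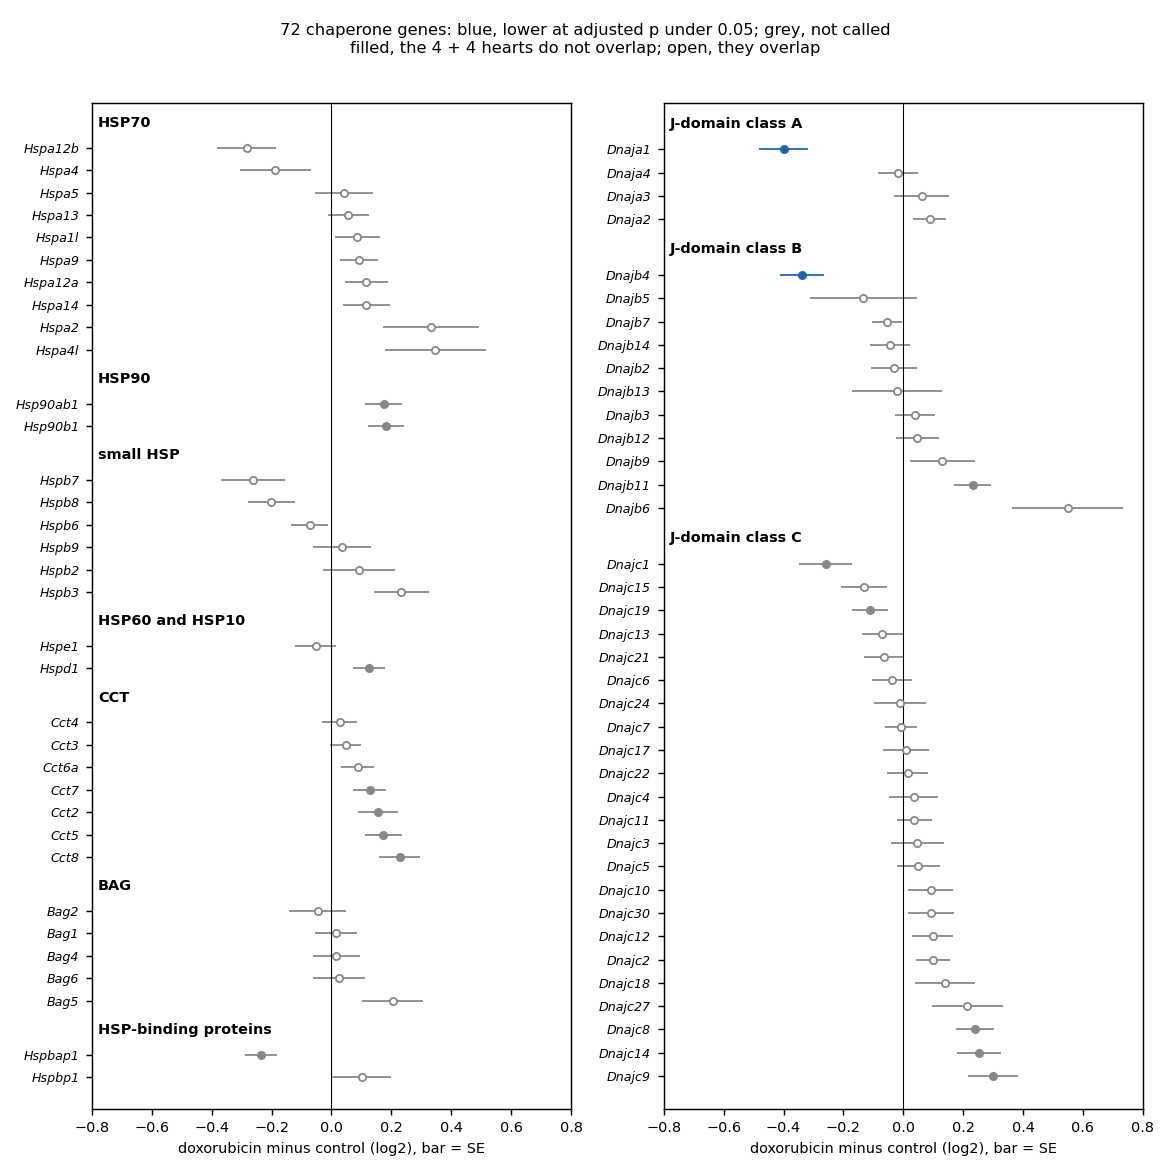
Log2 difference (doxorubicin minus control) of each of the 72 genes, grouped by subfamily; bars are standard errors (SE) from limma (n = 4 and 4). Filled points are genes whose control and doxorubicin values do not overlap, and the 2 blue points are the genes called lower, Dnaja1 (-0.40) and Dnajb4 (-0.34).

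The data bounded most of these differences closely. The SE was 0.05 to 0.19 log2, with a median of 0.07. The 95% confidence interval of the difference, from the limma fit and not adjusted for the number of genes, lay inside a 1.2-fold change in either direction for 38 of 72 genes, inside 1.5-fold for 69 and inside 2-fold for 72. The intervals that reached past 1.5-fold were those of Dnajb6, Hspa2 and Hspa4l. No member had a difference of 1.5-fold or more. Among all 14217 genes 314 did, which is also a small share.

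Over all probe sets, arrays of the same group correlated at 0.988 to 0.996 and arrays of different groups at 0.985 to 0.993. Cardiac muscle markers had a summed level of 16.3 to 16.4 log2 in both groups, with none of 6 called. Of the markers of other cell types, only Tie1, an endothelial receptor, was called (0.34 log2 higher). The other endothelial markers went both ways, with Vwf at 0.20, Pecam1 at -0.16 and Kdr at -0.22, and the median of the 4 was 0.02. Atrial markers ranged from 10.2 to 13.3 log2 summed in controls and from 10.5 to 14.3 in doxorubicin hearts. The hybridization controls, 18 probe sets for bacterial and phage transcripts that do not come from the heart, lay at 10.2 to 10.6 log2 on control arrays and at 9.97 to 10.1 on doxorubicin arrays, without overlap. With this level as a covariate 0 members were called. The level and the treatment go together, so such a fit cannot tell them apart. The part of this level in the results was not tested further.

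J-domain proteins made up 38 of the members, in classes A (4 genes), B (11) and C (23). Dnaja1, a main cytosolic partner of HSP70, had the lowest difference of the 72 genes. Its level was 10.94, 10.71, 10.73 and 11.04 log2 in control hearts 1 to 4 and 10.46, 10.39, 10.44 and 10.52 log2 in doxorubicin hearts 1 to 4. All doxorubicin hearts lay under all control hearts, and the controls were spread more widely (SD 0.16) than the doxorubicin hearts (SD 0.05). The difference was -0.40 log2 (SE 0.08, n = 4 and 4, limma adjusted p = 0.0383). A second Dnaja1 probe set stood at -0.48.

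Dnajb4 is a cytosolic class B protein related to Dnajb1, a co-chaperone of heat-induced HSP70. It lay at 11.35, 11.12, 11.18 and 11.32 log2 in control hearts 1 to 4 and at 10.93, 10.82, 10.83 and 11.02 log2 in doxorubicin hearts 1 to 4. The groups did not overlap, with control 2 and doxorubicin 4 nearest to each other. The difference was -0.34 log2 (SE 0.07, limma adjusted p = 0.0499), just inside the threshold. Dnajb1, one of the genes left out by name, fell by 1.44 log2 (SE 0.12, adjusted p = 2.78e-04), or 2.70-fold.

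Both calls depended on the settings and on single arrays. Dnaja1 was called under 10 of the 18 alternatives and Dnajb4 under 6. Leaving out any one array other than control 2 ended the call of Dnaja1 (limma adjusted p of 0.0519 to 0.111) and of Dnajb4 (0.0529 to 0.139), while both were called without control 2 (0.0260 and 0.0347). In these fits with 1 array left out, the differences stayed between -0.45 and -0.34 log2 for Dnaja1 and between -0.38 and -0.30 for Dnajb4. With the hybridization controls as a covariate the differences were -0.50 for Dnaja1 and -0.37 for Dnajb4. Neither was called there (limma adjusted p of 0.378 and 0.602), in a fit that cannot tell this level apart from the treatment. Dnajb4 also missed the threshold with arrays centred on their median (limma adjusted p = 0.0577), without dim probe sets (0.0511), with robust eBayes (0.0501) and with the replicate block (0.0552).

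**Figure D2:**
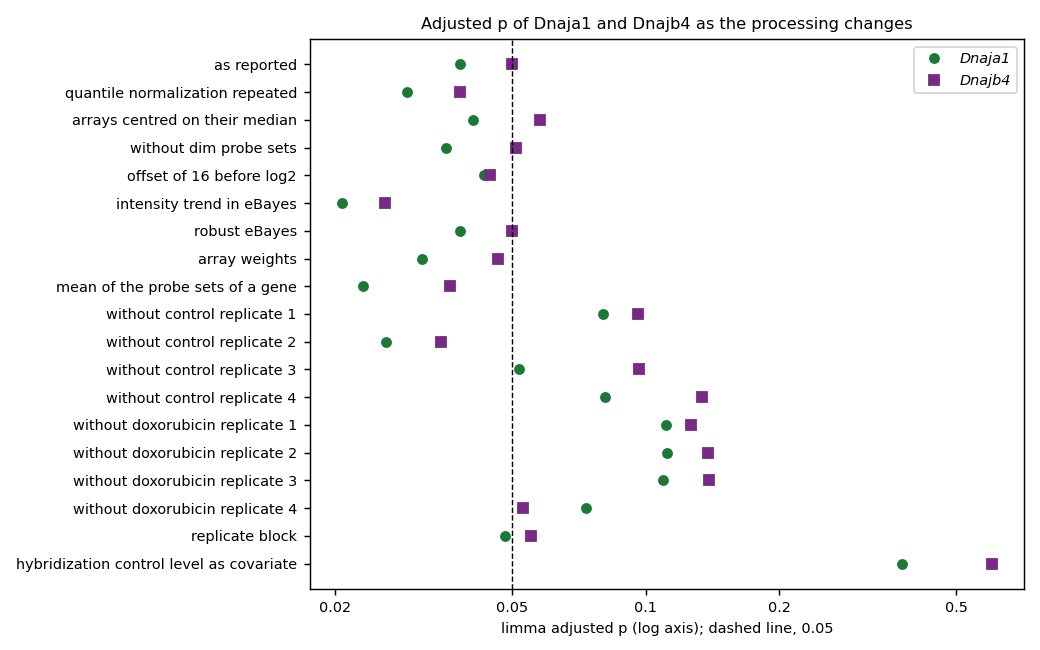
Limma adjusted p (log axis) of Dnaja1 and Dnajb4 as reported and under each of 18 changes in processing, with the threshold of 0.05 as a dashed line. Both genes miss the threshold without any single array other than control 2 and with the hybridization controls as a covariate, and Dnajb4 sits at 0.0499 as reported.

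The start of Dnaja1 is shown because it holds the letters that heat shock factors recognize, with Dnajb1 for comparison. A heat shock element is built of inverted GAA units. It was searched on both strands as the pair GAANNTTC, as the pair TTCNNGAA and as the 3-unit run GAANNTTCNNGAA, which contains one of each pair. The sequences are from RefSeq (GRCr8 build), from 250 bases before to 30 bases after the gene start, 5′ to 3′ on the gene's strand, with matches in capitals. Dnaja1 lies at chr5:60638154-60638433 on the plus strand and Dnajb1 at chr19:41431112-41431391 on the minus strand.
Dnaja1: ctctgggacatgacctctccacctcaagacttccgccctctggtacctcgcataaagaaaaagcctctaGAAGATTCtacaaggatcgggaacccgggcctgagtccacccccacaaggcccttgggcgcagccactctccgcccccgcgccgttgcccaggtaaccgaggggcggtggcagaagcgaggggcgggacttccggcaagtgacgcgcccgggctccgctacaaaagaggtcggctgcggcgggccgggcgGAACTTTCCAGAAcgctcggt
Dnajb1: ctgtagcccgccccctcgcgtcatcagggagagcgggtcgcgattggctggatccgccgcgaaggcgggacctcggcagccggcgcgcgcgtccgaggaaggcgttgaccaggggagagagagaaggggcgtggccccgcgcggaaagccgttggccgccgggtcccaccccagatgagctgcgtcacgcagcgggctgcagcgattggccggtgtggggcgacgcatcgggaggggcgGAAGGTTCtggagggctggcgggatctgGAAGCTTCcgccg
The 3-unit match of Dnaja1 begins at transcribed base 10 and a separate GAANNTTC pair 181 bases before the start. Dnajb1 has such a pair 11 bases before its start and another at transcribed base 18. Windows from 250 bases before to 50 after the start were matched for 60 of the 72 members, and Dnajb4 is among the 12 without one. GAANNTTC was present in 9 of the 60 windows (15%) and in 8.59% of all 33469 RefSeq windows, and TTCNNGAA in 11 (18.3%) and 8.77%. These RefSeq windows were not limited to the genes named on the array. The 3-unit run was present in 4 members (6.67%), Dnaja1, Hspd1, Hspe1 and Cct4, and in 0.798% of all windows. Hspd1 and Hspe1 hold the same stretch of DNA in overlapping windows, so it counts for both genes in each of these tallies. Of the 5 measured heat-inducible genes left out by name, 4 held GAANNTTC, among them Hsph1, which was not called. Hspa1a, which fell by 1.59 log2, held neither pair in its window. Whether that RefSeq start is the one used in the heart was not tested. A match describes letters and not a bound site.

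The other class A genes did not pass. Dnaja2 and Dnaja4, both cytosolic, stood at 0.09 (SE 0.05) and -0.02 (SE 0.07), and Dnaja3, which works in the mitochondrial matrix, at 0.06 (SE 0.09).

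In class B, Dnajb6 had the highest difference of the 72 genes, 0.55 log2 (SE 0.19, limma adjusted p = 0.208), and did not pass. Its protein suppresses aggregation, is found at the Z-disc of muscle and is mutated in a limb-girdle muscular dystrophy. Dnajb6 lay at 8.44, 8.14, 7.80 and 7.43 log2 in control hearts 1 to 4 and at 8.45, 8.70, 8.44 and 8.42 log2 in doxorubicin hearts 1 to 4. Control 1 reached the range of the doxorubicin hearts and control 4 lay lowest, and the control SD of 0.44 was the highest of the 72 genes. Dnajb5 varied in both groups, at 7.35 to 8.06 in controls and 7.23 to 7.80 in doxorubicin hearts, with a difference of -0.13 (SE 0.18). Dnajb2 stood at -0.03, Dnajb3 at 0.04, the dim Dnajb7 at -0.06 and Dnajb13, a gene of sperm and cilia, at -0.02.

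Class C proteins carry a J domain on otherwise unrelated proteins and serve special tasks. None of the 23 passed, and their median was 0.04. An unadjusted p under 0.05 was reached by 3 of the 23 with higher and 1 with lower values, beside 9.67% and 7.07% of all genes. Dnajc9, a histone chaperone, stood at 0.30 (SE 0.08, limma adjusted p = 0.122), its controls lying at 7.64 to 7.98 and its treated hearts at 8.02 to 8.22. The groups were close but did not overlap, and without control 2, the highest control, the difference was 0.36 and was called (adjusted p = 0.0453). Dnajc8, a nuclear protein associated with splicing, stood at 0.24 (SE 0.06, adjusted p = 0.103), with 9.02 to 9.17 in controls against 9.21 to 9.40. Dnajc2, which assists new chains at the ribosome, stood at 0.10, Dnajc21, a ribosome assembly factor, at -0.06 and the nuclear Dnajc17 at 0.0096.

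The class C genes of vesicles, endosomes and cytosol did not pass either. Dnajc5, the cysteine-string protein of secretory vesicles, stood at 0.05 (SE 0.07), Dnajc13, which acts in endosome sorting, at -0.07 (SE 0.07), and Dnajc27 at 0.21 (SE 0.12). Dnajc6, the auxilin that helps strip clathrin from vesicles, was dim (in the dimmest 25% of probe sets, with a mean under 4.16 log2) and stood at -0.04. Dnajc7, which binds both HSP70 and HSP90, stood at -0.0071 (SE 0.05), Dnajc12 at 0.10, Dnajc22 at 0.014 and Dnajc24, a factor of diphthamide synthesis, at -0.01.

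The HSP70 family counted 10 members, of which none passed. Hspa5, the HSP70 of the endoplasmic reticulum (BiP), lay at 11.49 to 11.90 log2 in controls and 11.66 to 11.93 in doxorubicin hearts, a difference of 0.04 (SE 0.10, 95% interval -0.17 to 0.26). Hspa9, the mitochondrial HSP70 (mortalin), stood at 0.09 (SE 0.06), with its 3 other probe sets at 0.02 to 0.09. Hspa13 stood at 0.06, Hspa14 at 0.12 and Hspa12a at 0.12. Hspa12b, a distant relative best known from endothelium, had 4.90 to 5.32 in controls and 4.66 to 4.95 in doxorubicin hearts (-0.28, SE 0.10, adjusted p = 0.226), with its other probe sets at -0.19 and -0.10. With the hybridization controls as a covariate Hspa12b stood at 0.03.

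The HSP110 genes Hspa4 and Hspa4l, which exchange the nucleotide of HSP70, had differences of opposite sign that did not pass, -0.19 (SE 0.12) and 0.35 (SE 0.17). Hspa4l ranged from 5.28 to 5.88 in controls and from 5.64 to 6.32 in doxorubicin hearts. Hspa2, a gene abundant in testis, ranged from 5.47 to 6.34 among doxorubicin hearts against 5.47 to 5.64 in controls, a difference of 0.33 (SE 0.16). Its second probe set stood at 0.48 (SE 0.11, limma adjusted p = 0.0616) without overlap between the groups and did not pass. Hspa1l, which is close in sequence to Hspa1a, was dim and stood at 0.09.

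BAG proteins release clients from HSP70, and none of the 5 members passed. Bag1 stood at 0.02, Bag2 at -0.05, Bag4 at 0.02 and Bag6 at 0.03. Bag5, whose protein carries several BAG domains, stood at 0.20 (SE 0.10, adjusted p = 0.435), with overlapping values of 6.71 to 7.13 in controls and 6.94 to 7.28 in doxorubicin hearts. Bag3, left out by name, fell by 0.34 log2 (SE 0.06, limma adjusted p = 0.0236), a call that ended when any one of 6 arrays, all but control 2 and doxorubicin 3, was left out (adjusted p of 0.0513 to 0.0821). Hspbp1, another exchange factor of HSP70, stood at 0.10 (SE 0.10).

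Hspbap1, whose protein binds the small heat shock protein HSP27, had the smallest p among members that did not pass (-0.24, SE 0.05, limma adjusted p = 0.0601). It lay at 5.29, 5.34, 5.41 and 5.37 log2 in control hearts 1 to 4 and at 5.13, 5.14, 5.13 and 5.06 log2 in doxorubicin hearts 1 to 4. The groups did not overlap, and the gene was called under 3 of the 18 alternatives.

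Both measured HSP90 genes had higher values in all doxorubicin hearts than in all controls, as did 5.75% of all genes, and neither passed. Hsp90ab1, the constitutive cytosolic form, lay at 12.28, 12.17, 12.24 and 12.28 log2 in control hearts 1 to 4 and at 12.36, 12.54, 12.41 and 12.36 log2 in doxorubicin hearts 1 to 4 (0.17, SE 0.06, adjusted p = 0.231). Its second probe set stood at 0.15. Hsp90b1, the form of the endoplasmic reticulum (GRP94), lay at 10.64, 10.66, 10.65 and 10.55 log2 in control hearts 1 to 4 and at 10.89, 10.82, 10.80 and 10.70 log2 in doxorubicin hearts 1 to 4 (0.18, SE 0.06, adjusted p = 0.192). Each difference amounts to 1.13-fold.

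**Figure D3:**
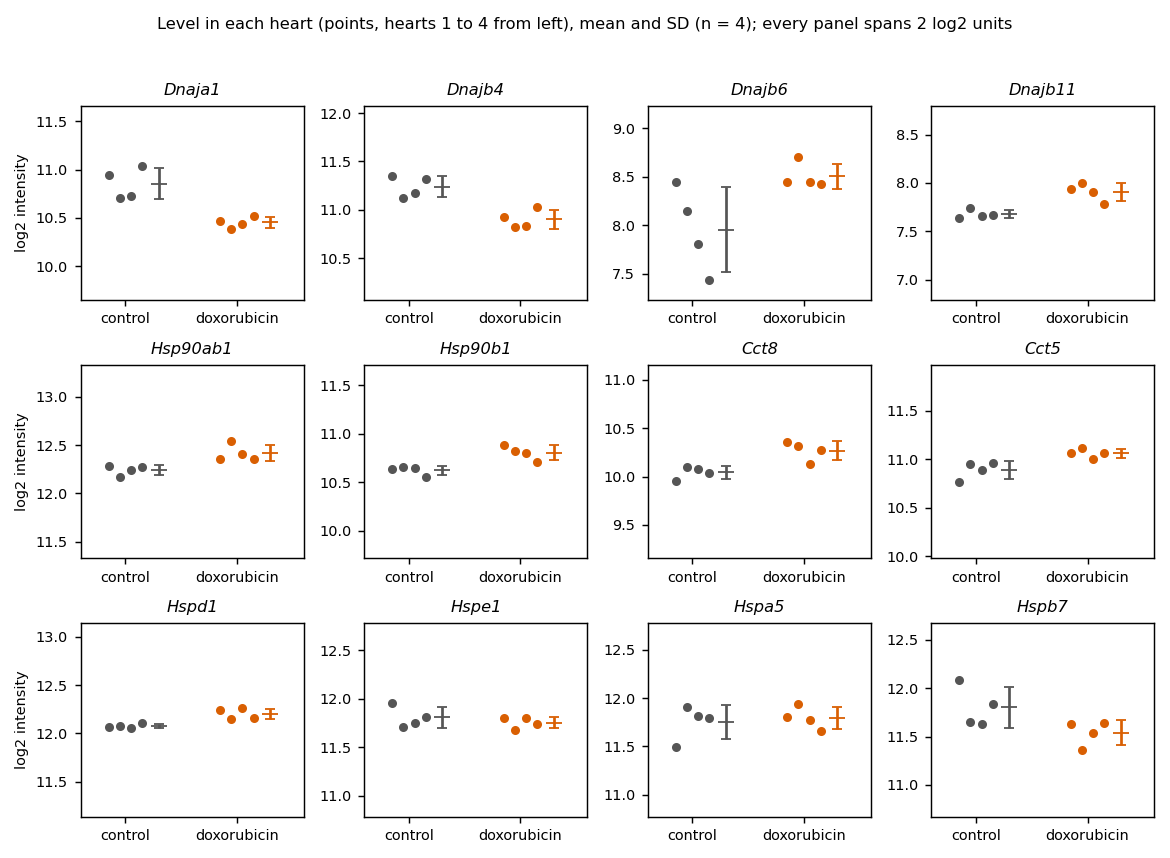
Log2 intensity of selected members in each heart (points) with the group mean and SD (n = 4), every panel spanning the same number of log2 units. Dnaja1 and Dnajb4 lie lower in all doxorubicin hearts, and Dnajb6 shows its control spread of 7.43 to 8.44.

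CCT folds actin and tubulin, and its 7 members all had a positive difference, from 0.03 (Cct4) to 0.23 (Cct8), with none called. Of all genes, 51.9% had a positive difference. For Cct2 (0.15), Cct5 (0.17), Cct7 (0.13) and Cct8 every doxorubicin heart lay above every control heart, while Cct3 (0.05), Cct4 and Cct6a (0.09) overlapped. Such upward separation was found for 5.75% of all genes. Cct8 was at 9.95, 10.10, 10.07 and 10.04 log2 in control hearts 1 to 4 and at 10.36, 10.32, 10.13 and 10.27 log2 in doxorubicin hearts 1 to 4 (SE 0.07, limma adjusted p = 0.145). The second probe set of Cct8 stood at 0.06. Cct5 was at 10.76 to 10.96 in controls against 11.01 to 11.12 (SE 0.06, adjusted p = 0.238), with a second probe set at 0.20. The median of the 7 subunits was 0.13, and each kept its positive sign under the 18 alternatives. Tcp1, the subunit whose symbol lies outside the pattern, stood at -0.0026 (SE 0.06).

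Across the 72 members, the groups did not overlap for 11 genes with higher values in doxorubicin hearts (15.3%) and for 5 with lower values (6.94%), against 5.75% and 4.69% of all genes.

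Small heat shock proteins are abundant in muscle, where they bind proteins of the sarcomere and cytoskeleton, and none of the 6 members passed. Hspb7 (-0.26, SE 0.11, adjusted p = 0.320) and Hspb8, the partner of Bag3 (-0.20, SE 0.08, adjusted p = 0.289), had the lowest differences, with second probe sets at -0.19 and -0.18. Hspb7 lay at 12.08, 11.65, 11.63 and 11.84 log2 in control hearts 1 to 4 and at 11.63, 11.36, 11.53 and 11.64 log2 in doxorubicin hearts 1 to 4. Control 1 was the highest control for each small heat shock gene except Hspb6. Averaged over the 6 genes it stood 0.20 above the control mean, the other controls stood at -0.10 to -0.0086 and those given doxorubicin at -0.05 to -0.0076. Hspb3, which pairs with Hspb2 in muscle, stood at 0.23 (SE 0.09, adjusted p = 0.297) and Hspb2 at 0.09 (SE 0.12). Hspb6 (HSP20), a kinase target in heart, stood at -0.07 (SE 0.06) and Hspb9, a testis gene, at 0.03, whereas Hspb1 (HSP27), left out by name, fell by 0.78 log2 (SE 0.10, adjusted p = 0.00318).

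The mitochondrial chaperonin is encoded by Hspd1 (HSP60) and Hspe1 (HSP10), which lie head to head, so that 211 bases of their start windows are the same DNA. The Hspe1 window is printed because the shared part holds 2 overlapping 3-unit runs of GAANNTTCNNGAA, 65 and 60 bases before the Hspe1 start (capitals). It lies at chr9:64084077-64084356 on the plus strand of GRCr8, from RefSeq.
Hspe1: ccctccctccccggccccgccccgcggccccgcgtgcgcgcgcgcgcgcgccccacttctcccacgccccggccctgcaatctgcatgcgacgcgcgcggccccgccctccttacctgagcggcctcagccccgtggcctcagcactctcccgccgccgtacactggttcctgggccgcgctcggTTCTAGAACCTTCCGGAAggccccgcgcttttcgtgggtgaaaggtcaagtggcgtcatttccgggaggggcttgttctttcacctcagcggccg
Hspd1 was at 12.06, 12.08, 12.06 and 12.11 log2 in control hearts 1 to 4 and at 12.24, 12.15, 12.26 and 12.17 log2 in doxorubicin hearts 1 to 4 (0.13, SE 0.05, limma adjusted p = 0.332). Hspe1 was at 11.96, 11.70, 11.75 and 11.82 log2 in control hearts 1 to 4 and at 11.80, 11.68, 11.80 and 11.74 log2 in doxorubicin hearts 1 to 4 (-0.05, SE 0.07, adjusted p = 0.834). Hspd1 did not overlap between the groups, Hspe1 did, and neither passed. Of the members with a 3-unit run, only Dnaja1 was called (-0.40). Hsph1, which was left out by name and also holds the run, stood at 0.09 (SE 0.07).

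By compartment, both called genes belonged to the 42 members of the cytosol or of uncertain place, whose median was 0.03. The share called lower among all genes was 2.17%. The 9 mitochondrial members had a median of 0.04 and ranged from -0.13 to 0.13. Dnajc15 (-0.13, SE 0.08) and Dnajc19 (-0.11, SE 0.06), which act at the motor that pulls proteins into the matrix, were at the low end, and Dnajc19 did not overlap between the groups. Dnajc11 (0.04), Dnajc4 (0.03) and Dnajc30 (0.09), also mitochondrial, did not pass. The median was 0.10 for the 5 genes of the nucleus, spliceosome or ribosome assembly and 0.0063 for the 4 of vesicles or endosomes.

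The 12 members of the endoplasmic reticulum had a median of 0.07, with none called and 10 positive differences, beside 51.9% of all genes. Dnajb11 (ERdj3), which brings clients to BiP, lay at 7.64, 7.74, 7.66 and 7.67 log2 in control hearts 1 to 4 and at 7.93, 8.0, 7.91 and 7.79 log2 in doxorubicin hearts 1 to 4 (0.23, SE 0.06, adjusted p = 0.103). All its doxorubicin values were above all its control values. Dnajc14, which assists the export of membrane receptors, stood at 0.25 (SE 0.07, adjusted p = 0.138), also without overlap, and Dnajb9 (ERdj4), a partner of BiP, at 0.13 (SE 0.11). Dnajc10 (ERdj5), a disulfide reductase, stood at 0.09 with its second probe set at 0.30, and Dnajc3 (p58IPK), an inhibitor of the kinase PERK, at 0.05 (SE 0.09). Dnajc1 (ERdj1), which binds ribosomes, stood at -0.26 (SE 0.09, adjusted p = 0.217) with no overlap between the groups. Dnajb12 (0.05), Dnajb14 (-0.04) and Dnajc18 (0.14) are membrane proteins of the compartment, and the second probe set of Dnajb12 stood at -0.25.

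Hspa5 and Hsp90b1 are textbook targets of the ER stress element, CCAAT and CCACG spaced by 9 bases, written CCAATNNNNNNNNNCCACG. Searched on both strands, it was found in 3 of the 60 member windows, Hspa5, Hsp90b1 and Dnajc3, and in 0.0657% of all windows. Hspa5 and Hsp90b1 are shown because they hold the element. The members with it stood at 0.04 (Hspa5), 0.18 (Hsp90b1) and 0.05 (Dnajc3), with none called. Among the partner genes described below, Canx (0.17) and Calr (0.04) also held it, and neither was called. Hspa5 is at chr3:38452766-38453045 on the plus strand and Hsp90b1, with 2 matches, at chr7:23012264-23012543 on the minus strand, both from RefSeq (GRCr8) with matches in capitals.
Hspa5: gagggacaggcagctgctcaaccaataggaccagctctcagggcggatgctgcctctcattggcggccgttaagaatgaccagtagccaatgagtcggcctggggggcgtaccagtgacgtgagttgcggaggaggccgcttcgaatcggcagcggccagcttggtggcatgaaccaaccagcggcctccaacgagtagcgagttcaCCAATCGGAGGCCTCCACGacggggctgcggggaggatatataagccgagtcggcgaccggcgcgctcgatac
Hsp90b1: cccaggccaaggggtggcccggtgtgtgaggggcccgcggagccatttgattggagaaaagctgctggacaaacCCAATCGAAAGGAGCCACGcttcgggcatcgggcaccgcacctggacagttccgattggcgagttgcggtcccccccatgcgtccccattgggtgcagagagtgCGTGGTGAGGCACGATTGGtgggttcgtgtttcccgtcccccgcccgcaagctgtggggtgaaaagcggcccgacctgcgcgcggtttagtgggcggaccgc

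The wider chaperone network was read from lists of partner genes. Of 56 listed partners 52 were measured, and the median was 0.07. Of the 52, 1 fell and none rose, beside 2.17% and 0.802% of all genes. An unadjusted p under 0.05 was reached by 13 of the 52 with higher and 1 with lower values. Of all genes, 9.67% were higher and 7.07% lower at that threshold. The gene that fell was Hsf2, a heat shock factor, at 9.58, 9.40, 9.23 and 9.49 log2 in control hearts 1 to 4 and 8.54, 8.68, 8.48 and 8.86 log2 in doxorubicin hearts 1 to 4 (-0.78, SE 0.10, limma adjusted p = 0.00315). The groups lay well apart, and its 3 other probe sets stood at -0.72 to -0.22. Hsf1, the main heat shock factor, stood at -0.02 (SE 0.08) and Hsf4 at -0.13 (SE 0.15).

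None of the 16 measured co-chaperones of HSP70 and HSP90 passed, and 15 had positive differences, beside 51.9% of all genes. Stip1 (HOP), which passes clients from HSP70 to HSP90, stood at 0.16 (SE 0.06), Cdc37l1, a relative of the kinase co-chaperone Cdc37, at 0.19 (SE 0.06) and Sgta at 0.23 (SE 0.09). Among muscle chaperones, Smyd1, a methyltransferase of the sarcomere, stood at 0.23 (SE 0.07), Unc45b, the myosin chaperone, at 0.11 (SE 0.07) and Cryab, the alpha-B crystallin, at -0.08 (SE 0.07). Of the chaperonin partners, Pdcl, a phosducin-like protein that works with CCT, stood at 0.49 (SE 0.11, limma adjusted p = 0.0552) without overlap and was called under 6 of the 18 alternatives. Of 10 partners in the endoplasmic reticulum 9 had positive differences, beside 51.9% of all genes, and none was called. Hyou1, an exchange factor of BiP, stood at 0.44 (SE 0.16) and Pdia6, a disulfide isomerase, at 0.28 (SE 0.09). The 10 mitochondrial partners had a median of 0.0034, with Trap1, the HSP90 of mitochondria, at 0.15 (SE 0.06).

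**Figure D4:**
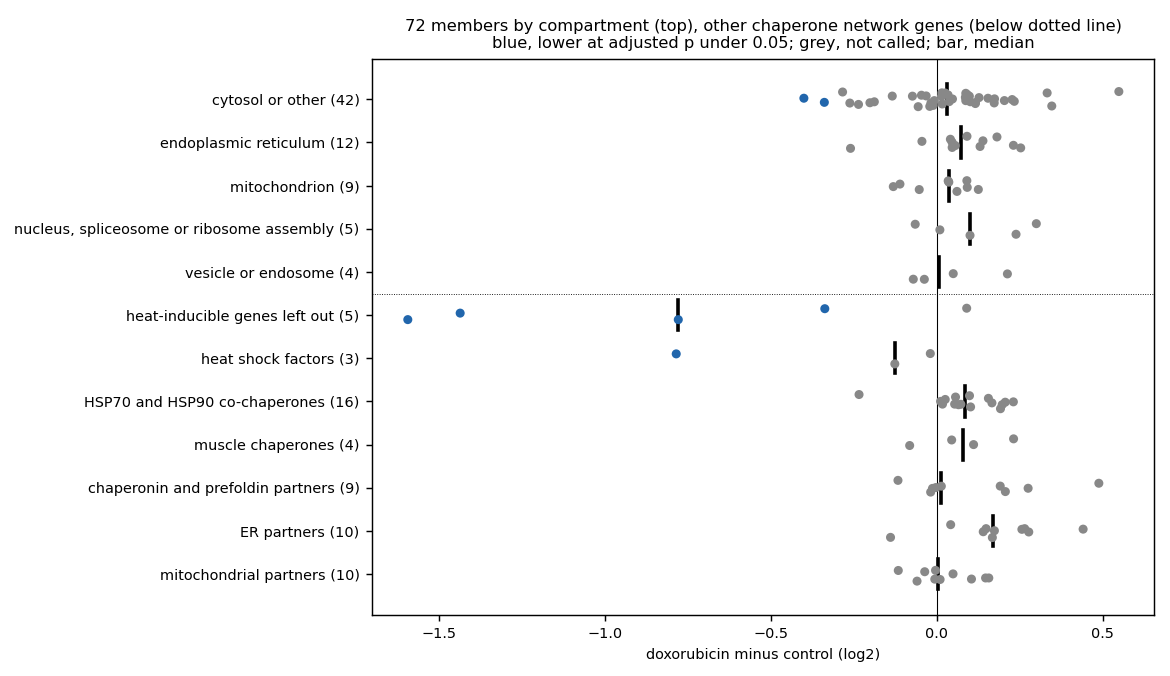
Difference of each gene, doxorubicin minus control (log2), for the 72 members by compartment and for other genes of the chaperone network by list, with the median of each list as a bar. The measured heat-inducible genes left out by name have a median of -0.78, and the medians of the 5 compartments lie between 0.0063 and 0.10.

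Of the 7 heat-inducible genes left out by name 5 were measured, with a median of -0.78. Among these 5, 4 were called lower, beside 2.17% of all genes. Dnajb1 was called under all 18 alternatives, Hspa1a and Hspb1 under 17 and Bag3 under 10. With the hybridization controls as a covariate, Hspa1a (limma adjusted p = 0.119), Hspb1 (0.120) and Bag3 (0.493) were not called. These genes were separated from the members by name with results of these data known, so the contrast with the members' median of 0.05 is a description. Where a member had several probe sets they mostly went the same way: of 27 such genes, 7 had probe sets of both signs. The median deviation of the 72 genes from the control mean was -0.02 to 0.02 log2 in single control hearts and 0.02 to 0.06 in single doxorubicin hearts, beside -0.0034 to 0.02 over all genes in the latter.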

How the data were processed

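Total RNA of 8 rat hearts was labelled as biotinylated cRNA for Affymetrix arrays, per the labels. The authors deposited RMA output, 1 intensity per probe set and array, per the submitters' processing notes. For RMA, the software, its version and the probe definitions were not given in the sources used here. The intensity values were linear (array medians 29.9 to 31.0), so log2 was taken without an offset. RMA makes array distributions alike, so a shift shared by most transcripts would not show. The dose is read as 2 µM, since a character is lost in the label.

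Of 31099 probe sets, 57 were controls and 31042 were tested with limma 3.58.1 (R 4.3.3), lmFit and eBayes, without covariates. P-values are two-sided and adjusted by Benjamini-Hochberg over all 31042, and called under 0.05. Symbols came from the platform annotation (20826 probe sets with 1 symbol, 436 with several, 9780 with none). The number of arrays limits the precision. No 2 arrays were identical. Motifs were searched in RefSeq promoter windows (GRCr8). Figures used Python 3.11.15 and matplotlib 3.10.9. The fit was tested on simulated data.

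The members and lists were chosen with earlier results of these data known. Named were called genes, and in each subfamily the 4 with the smallest p and the 2 brightest; the other members were named so that each is accounted for, and some partners after their values were seen. The 18 alternatives changed normalization, filters, the eBayes prior, weights, probe set choice, covariates or left out 1 array. Same-numbered hearts did not deviate together, so numbers were not taken as pairs.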

Additional observations from a re-analysis of the deposited data

Results flagged for a closer look

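For 10 of 144 sets of 4 hearts (72 genes in each of 2 groups), the log2 value of 1 heart lay far from the other hearts of its group, with a gap to the nearest of them that passed Dixon's 95% critical value. Chance gives this in about 1 in 20 sets. None of these genes was called.

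Cct3 lay at 10.44 in control 4 and at 10.50 to 10.51 in the other hearts of that group. Cct6a lay at 9.68 in doxorubicin 3 and at 9.73 to 9.74 in the other hearts of that group. Dnajb13 lay at 5.56 in doxorubicin 3 and at 5.34 to 5.36 in the other hearts of that group. Dnajb6 lay at 8.70 in doxorubicin 2 and at 8.42 to 8.45 in the other hearts of that group. Dnajc11 lay at 7.02 in doxorubicin 3 and at 6.93 to 6.94 in the other hearts of that group. Dnajc13 lay at 8.24 in control 2 and at 8.05 to 8.08 in the other hearts of that group. Dnajc24 lay at 4.82 in control 2 and at 4.46 to 4.49 in the other hearts of that group. Dnajc4 lay at 8.09 in control 1 and at 7.74 to 7.80 in the other hearts of that group. Dnajc5 lay at 8.35 in doxorubicin 3 and at 8.48 to 8.5 in the other hearts of that group. Hspbap1 lay at 5.06 in doxorubicin 4 and at 5.13 to 5.14 in the other hearts of that group.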

How the results depend on the processing

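The count of called members, 2 as reported, was 1 with arrays centred on their median, without dim probe sets, with robust eBayes and with the replicate block, and 0 with the hybridization controls as a covariate. It was 3 with an offset of 16 before log2, with array weights and with the mean of a gene's probe sets, where Hspbap1 was called lower as well. The members called lower had the same counts under each of these. Leaving out 1 array gave 0 to 3 called members, 0 to 2 called lower and 0 to 1 called higher (2 as lower and Dnajc9 as higher without control 2, 0 without any other array). Where the count was 1, Dnaja1 was called and Dnajb4 was not; correlations of same-numbered hearts were -0.18 to 0.06. Hspa12b turned to 0.028 with the hybridization covariate. The cause was not tested. Of the 72 members, 47 kept their sign under every alternative that included them, 25 did not, and 4 were called in at least 1 setting. The 3 dim members were included in 17 alternatives and the others in 18.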
